A study of Schizosaccharomyces pombe with 6 samples.

Results

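The cytosolic 40S ribosomal protein genes of Schizosaccharomyces pombe were taken as all nuclear genes with the standard name rps followed by digits, together with ubi3 and ubi5, which encode ubiquitin fused to S31. This gave 57 genes of the 6952 in the count table. They encode 32 proteins, of which 8 have 1 gene, 23 have 2 copies and S4 has 3. RNA was sequenced from 3 aal1-pOE and 3 evc cultures, all in a 972h-/leu1-32 background, grown in the minimal medium EMMG and sampled on day 6 of chronological ageing, when the cells are non-dividing. The aal1-pOE cells carried a plasmid from which P41nmt1, a promoter shut off by thiamine, drove overexpression of the long non-coding RNA aal1, and the evc cells carried the empty vector. The comparison addressed which 40S transcripts change in stationary-phase cells that hold excess aal1, by protein and by copy.

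The 40S subunit binds the mRNA, scans for the start codon and decodes, and its proteins sit on the ribosomal RNA in a head, a body and a platform. Fission yeast keeps many of its ribosomal proteins as duplicated genes, and transcription of these genes is promoted by TORC1, the growth-signalling kinase complex. Many of their promoters carry HomolD, an element that stands in for a TATA box and is bound by Rrn7, and upstream of it the element HomolE.

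Promoters were read from the RefSeq genome ASM294v3 around the annotated transcript start, from 250 bases before it to 50 bases after it. HomolD (CAGTCACA, either strand) lay in 35 of the 57 promoters (61.4%), against 137 of all 5112 protein-coding promoters (2.68%). The HomolE core (CCCTACCC, either strand) lay in 23 of the 57 (40.4%), against 81 of all 5112 (1.58%). Both letters-only matches occurred together in 11 members. Positions were taken from the match nearest the transcript start, since rps1402 holds 2 matches. The first base of this match was 43 to 75 bases before the start, with a median of 52. It was on the sense strand in 21 members and on the other in 14. A search for the first 7 bases alone (CAGTCAC), made after the sequences had been read, matched 52 members (91.2%), against 241 of all 5112 promoters (4.71%). The 17 members that only this shorter search found carried it 44 to 67 bases before the start. The 5 members without it were rps1202, rps1401, rps2302, rps502 and rps902. The 120 bases before the transcript start are shown 5′ to 3′ for the copies of S14, S26 and S23, whose copies are described below with their different changes, for rps2502 and rps21, the members with the most negative fold changes, and for the divergent neighbours rps2 and rps20. Capitals mark HomolD (CAGTCACA or its reverse complement TGTGACTG) and the HomolE core (CCCTACCC or its reverse complement GGGTAGGG).
rps1402 (chrII:1792243-1792362, plus strand): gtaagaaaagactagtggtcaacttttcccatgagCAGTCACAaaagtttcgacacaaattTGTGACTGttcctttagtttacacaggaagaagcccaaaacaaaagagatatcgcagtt
rps1401 (chrI:3436124-3436243, plus strand): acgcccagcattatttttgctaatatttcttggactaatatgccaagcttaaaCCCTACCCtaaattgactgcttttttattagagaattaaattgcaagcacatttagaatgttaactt
rps2602 (chrI:2793485-2793604, minus strand): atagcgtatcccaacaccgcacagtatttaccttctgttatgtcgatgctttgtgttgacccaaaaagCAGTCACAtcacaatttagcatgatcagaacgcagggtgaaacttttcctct
rps2601 (chrI:236028-236147, minus strand): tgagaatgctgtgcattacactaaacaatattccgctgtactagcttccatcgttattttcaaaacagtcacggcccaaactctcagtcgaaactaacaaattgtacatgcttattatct
rps23 (chrI:2135811-2135930, minus strand): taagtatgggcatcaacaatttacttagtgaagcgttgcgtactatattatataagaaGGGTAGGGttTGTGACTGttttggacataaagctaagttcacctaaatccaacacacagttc
rps2302 (chrII:2896967-2897086, plus strand): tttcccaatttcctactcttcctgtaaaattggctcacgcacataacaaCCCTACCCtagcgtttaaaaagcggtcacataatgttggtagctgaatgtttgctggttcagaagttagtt
rps2502 (chrI:4208857-4208976, minus strand): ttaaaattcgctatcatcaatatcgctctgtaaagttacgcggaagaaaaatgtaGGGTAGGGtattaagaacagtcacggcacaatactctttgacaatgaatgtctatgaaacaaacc
rps21 (chrII:2083748-2083867, plus strand): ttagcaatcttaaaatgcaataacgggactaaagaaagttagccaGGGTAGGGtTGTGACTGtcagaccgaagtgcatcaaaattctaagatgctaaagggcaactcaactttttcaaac
rps2 (chrIII:2096037-2096156, minus strand): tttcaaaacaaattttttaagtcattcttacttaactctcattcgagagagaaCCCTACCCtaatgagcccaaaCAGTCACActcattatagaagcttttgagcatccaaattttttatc
rps20 (chrIII:2096407-2096526, plus strand): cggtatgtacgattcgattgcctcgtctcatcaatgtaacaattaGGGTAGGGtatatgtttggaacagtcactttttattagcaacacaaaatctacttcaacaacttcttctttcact
The stronger S14 copy, rps1402, holds 2 HomolD matches in this window and rps1401 none. In S26, rps2602 holds HomolD, while rps2601 has the shorter cagtcac followed by a g. In S23, rps23 holds both elements side by side. Its copy rps2302 holds the HomolE core and no exact HomolD match, but a near match, cggtcaca. Inexact matches were not searched for. Pairs not printed varied. In S22, rps2201 and rps2202 both hold HomolD. In S10, rps1001 (log2 fold change -1.64) holds HomolD and rps1002 (-2.43) does not. In S15, rps1502 (-2.75) holds it and rps1501 (-1.85) does not. A link between these elements and the changes of the copies was not tested.

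The libraries held between 5839863 and 13164975 counts. The RNA aal1 had 54, 141 and 58 counts in the aal1-pOE libraries, against 4, 2 and 4 counts in the evc libraries (replicates 1, 2 and 3), in the direction of the labels. These counts do not separate aal1 of the plasmid from aal1 of the chromosome. Replicate 2 of aal1-pOE stood apart from the others: its 100 most abundant genes took 28.1% of its counts, against 41.0% and 41.2% in the other aal1-pOE libraries and 43.5% to 44.5% in evc. Its composition factor (TMM, trimmed mean of M-values) was 1.80, against 1.07 and 1.04 in the other aal1-pOE libraries and 0.763 to 0.850 in evc. These factors shifted the log2 fold change of the median gene by -0.72, to 0.08. In the evc group, replicate 1 was the lowest for all 57 members. The part of these differences in the results was not tested, and results that rest on them are given without these libraries too.

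The 40S genes were lower in aal1-pOE as a body. Of the 57 genes, 54 fell and 0 rose (edgeR quasi-likelihood test, adjusted p of at most 0.05 after Benjamini-Hochberg adjustment over 5823 genes), where 4.64% of all genes tested fell. The median log2 fold change was -2.23, a 4.69-fold lower level, against 0.08 for all genes tested, and the called members were 2.49-fold to 7.64-fold lower. The 3 members that did not pass were rps2202, rps1902 and rps2601. In TMM-scaled counts per 1000000 library counts (CPM), every aal1-pOE library lay below every evc library for 56 of the 57 members, against 19.1% of all genes. The exception was rps2601. In CPM from library totals, with no composition factor, the groups kept apart for 47 members, against 6.29% of all genes. The values of rps1902, a weaker S19 copy, were 31, 58.8 and 23.5 CPM in aal1-pOE, against 59.7, 139 and 135 CPM in evc. Its log2 fold change was -1.55 ± 0.41 (adjusted p 0.0583 in edgeR). It passed without aal1-pOE replicate 2 (0.0159), without evc replicate 1 (0.0370), with a replicate block (0.0020), with DESeq2 (0.0055) and with the edgeR likelihood ratio test (0.0057). It stayed uncalled in 10 of the 16 alternative fits described below. Among these were library totals (-0.67, adjusted p 0.350 in edgeR), where its groups overlapped. Others were the fits without evc replicate 2 (0.230), evc replicate 3 (0.226) or aal1-pOE replicate 1 (0.124). Relative to the evc mean, the median member stood at -2.04, -2.42 and -2.16 on the log2 scale in aal1-pOE replicates 1, 2 and 3, against -0.64, 0.32 and 0.33 in evc replicates 1, 2 and 3. A lower share of a bulk library cannot tell less 40S mRNA per cell from more of other RNA.

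Apart from rps2601, the direction held in each fit, while the number of calls depended on single libraries. Over 17 fits, the one above and 16 with another scaling, filter or tool or with libraries left out, 56 members had a negative log2 fold change in every one, and 20 members were called in every one. The shares of all genes that did so were not computed, and the fits share libraries. With library totals the median was -1.53 against 0.80 for all genes, a distance of -2.33, where TMM scaling gave -2.31. That fit called 46 members, against 2.64% of all genes. Without aal1-pOE replicate 1, 41 members were called lower, against 2.46% of all genes. Without evc replicate 2 the count was 21 (1.4% of all genes), and without evc replicate 3 it was 22 (1.49% of all genes). It was 56 without aal1-pOE replicate 2 (9.09% of all genes) and 57 when evc replicate 1 was omitted as well (20.2% of all genes).

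By protein, with the copies summed before the fit, 32 of 32 proteins fell, with adjusted p between 0.0112 and 0.0279 in edgeR, where 3.35% of all rows fell. The log2 fold changes ran from -2.92 ± 0.49 (SE) for S25 to -1.66 ± 0.33 for S2. S25, a head protein that viral and cellular internal initiation needs in budding yeast and mammals, averaged 291 ± 131 CPM in the aal1-pOE libraries, against 2198 ± 786 CPM in the evc libraries (SD, n = 3 each). S2, which lines the mRNA entry and is methylated by the arginine methyltransferase Rmt3, averaged 285 ± 13.4 CPM in the aal1-pOE libraries, against 901 ± 309 CPM in the evc libraries (SD, n = 3 each). Between these ends the proteins followed each other closely. S12, a protein of the beak of the head, had a log2 fold change of -2.69 ± 0.40, S17 one of -2.67 ± 0.36, and S0, which budding yeast needs to mature the small-subunit rRNA, one of -2.42 ± 0.42. Near the other end stood S30 at -1.78 ± 0.36 and S27 at -1.93 ± 0.39. Neighbours in this order differed by less than their standard errors. Leaving out replicate 1 of aal1-pOE, or replicate 2 or 3 of evc, left 0 of 32 proteins called (adjusted p in edgeR 0.0619 to 0.0884, 0.0748 to 0.16 and 0.0730 to 0.144), where 0.0% of all rows were called lower in each. All 32 proteins kept an unadjusted p under 0.05 in each of these fits. The share of all rows with such a p was not computed, so this count has no comparison.

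**Figure D1:**
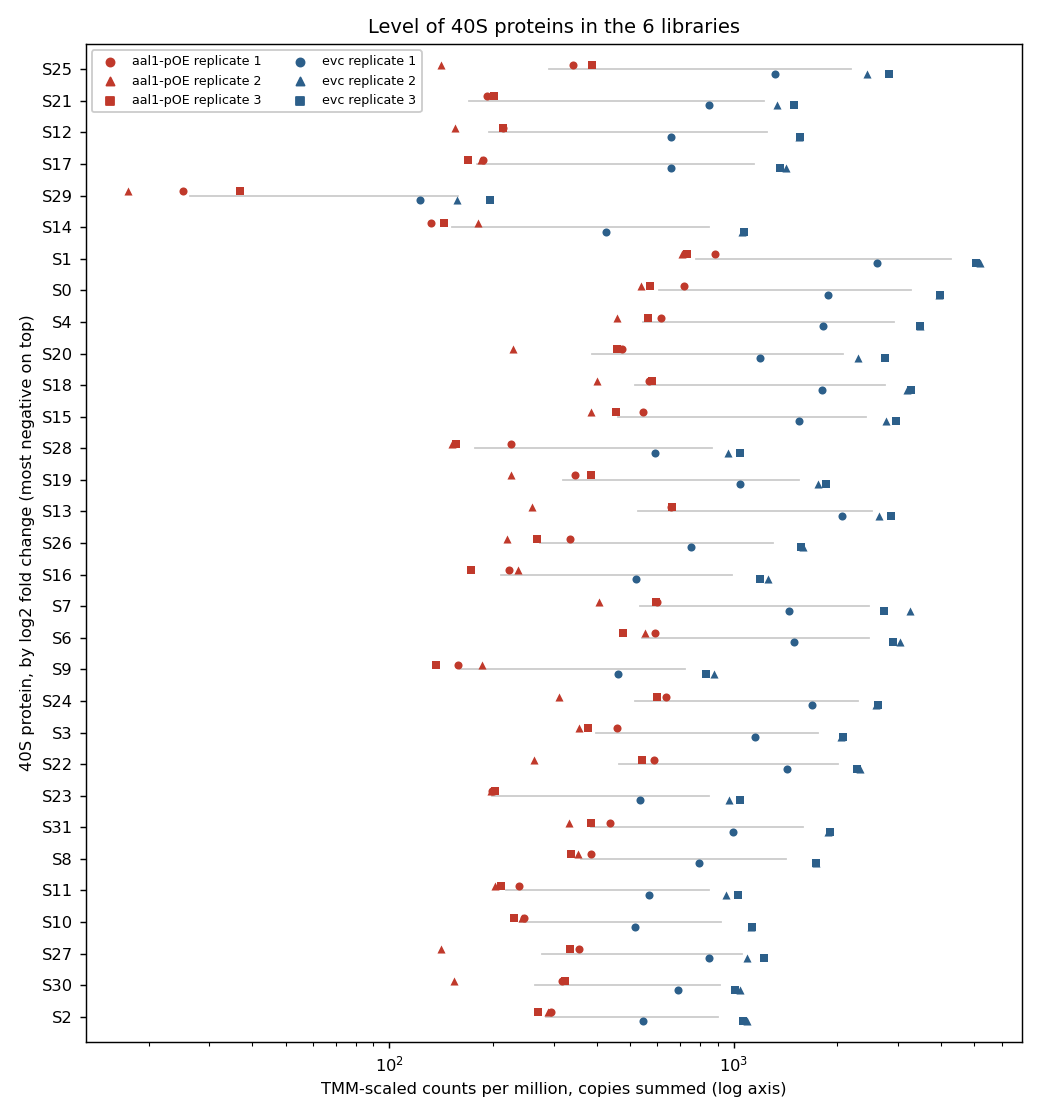
Level of 31 of the 32 40S proteins in the 6 libraries, in TMM-scaled CPM with the copies summed (log axis), with aal1-pOE libraries in red and evc libraries in blue, and a grey line between the group means. For all 31 proteins drawn the 3 red points lie left of the 3 blue ones, and evc replicate 1 is the lowest blue point.

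**Figure D2:**
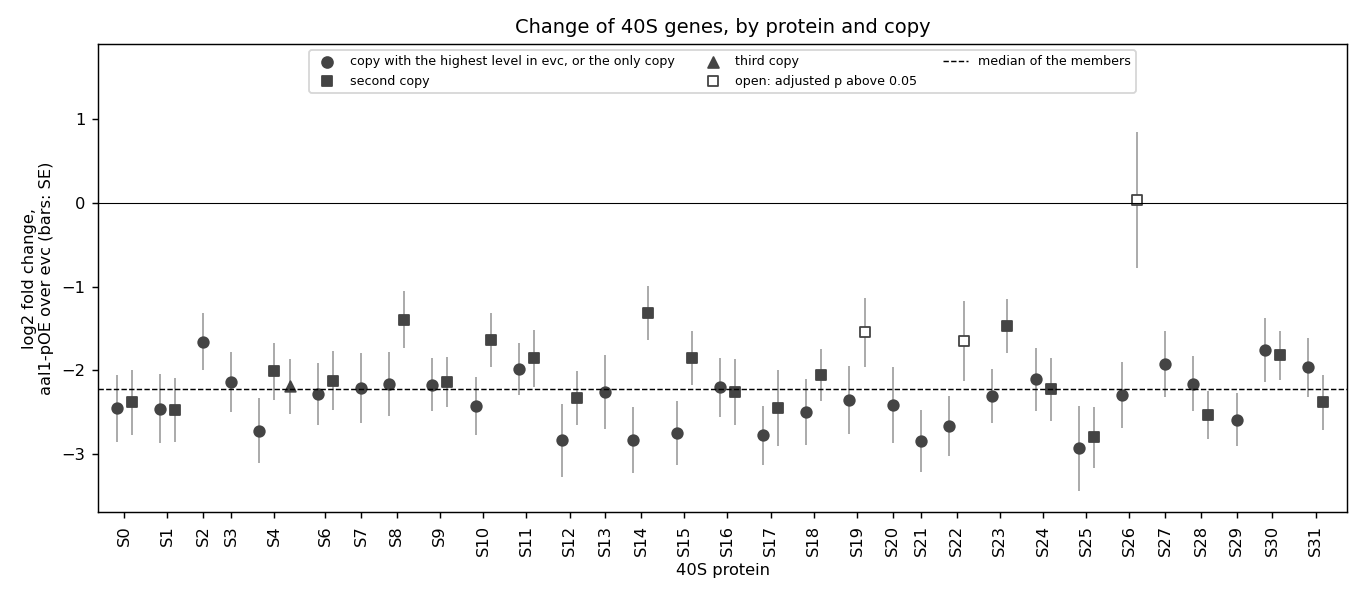
Log2 fold change (aal1-pOE over evc, bars are SE) of 55 of the 57 genes in order of protein number, with copies ordered by their evc level per kilobase. Open symbols did not pass the test. The genes lie around the dashed line, the median of all 57 at -2.23, and rps2601 stands alone near 0.

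Single-copy genes have no close copy that could share their reads. All 8 fell, where 4.64% of all genes tested fell, and the median of their log2 fold changes was -2.23. For rps21, whose small protein sits on the body, the libraries read 192, 119 and 202 CPM in aal1-pOE, against 846, 1337 and 1494 CPM in evc. It fell by 2.84 on the log2 scale (SE 0.37, adjusted p 0.0065 in edgeR), the second most negative value of all members. For rps29, a zinc-binding head protein, they read 25.1, 17.4 and 36.9 CPM in aal1-pOE, against 122, 157 and 196 CPM in evc, a log2 fold change of -2.59 ± 0.32. It had the lowest level of the single-copy genes and still separated the groups. The genes rps20, whose product is a ubiquitylation target on stalled ribosomes in budding yeast and human cells, rps13, rps7 and rps3, which lines the mRNA entry, had log2 fold changes of -2.42 ± 0.45, -2.26 ± 0.44, -2.21 ± 0.42 and -2.14 ± 0.36. The smallest changes among the 8 were those of rps27, at -1.93 ± 0.40, and rps2, at -1.66 ± 0.34. The calls of rps21 and rps29 stood in all 17 fits. Those of rps2, rps7, rps13, rps20 and rps27 were lost in any fit that lacked replicate 1 of aal1-pOE or replicate 2 or 3 of evc (adjusted p in edgeR from 0.0546 for rps20 without aal1-pOE replicate 1 to 0.132 for rps2 without evc replicate 2), the call of rps2 was also lost with library totals (-0.92, adjusted p 0.0671), and that of rps3 without evc replicate 2 (0.0677) or evc replicate 3 (0.0643).

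Copies of a protein mostly moved together. In the 24 proteins with copies, the log2 fold changes of the copies lay within 0.40 of each other at the median, 14 proteins had copies closer than 0.5, and 3 had copies more than 1 apart. The copies that stood out were those of S26, S14 and S22. The copies are similar genes: 8 of 26 pairs encode identical proteins, and coding identity ran from 75.1% to 94.3%. In 18 members some stretches of 40 bases occur elsewhere in the genome, and 6 members had more than 10% of such stretches, the highest being rps502 (44.3%), so counts of these copies are less certain.

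S26 lines the mRNA exit, and its copy rps2602 carried nearly all of the message. In CPM, rps2602 read 331, 194 and 267 in aal1-pOE, against 744, 1578 and 1556 in evc, and fell by 2.29 on the log2 scale (SE 0.40, adjusted p 0.0106 in edgeR, lost without evc replicate 2 at 0.0675 and without evc replicate 3 at 0.0634). The copy rps2601, whose protein is 90% identical, was counted 37, 598 and 17 times in aal1-pOE, against 26, 56 and 74 times in evc. Only aal1-pOE replicate 2 was high, and the other 2 aal1-pOE libraries were lowest in CPM. The log2 fold change of rps2601 was 0.04 ± 0.81 (adjusted p 0.98 in edgeR). Its sign was not settled: it was -1.63 without aal1-pOE replicate 2 (adjusted p 0.0836), -0.34 without evc replicate 1 (0.830), -0.036 with DESeq2 (0.979) and 1.09 with library totals (0.416).

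S14, a platform protein whose budding yeast counterpart can mutate to give resistance to the translation inhibitor cryptopleurine, has copies with 100% identical proteins and 93.6% identical coding sequences. The copy rps1402 read 94.7, 115 and 94.7 CPM in aal1-pOE, against 350, 890 and 923 CPM in evc, and fell by 2.83 on the log2 scale (SE 0.40, adjusted p 0.0065 in edgeR). The copy rps1401 read 38.1, 65.9 and 50.0 CPM in aal1-pOE, against 75.6, 164 and 145 CPM in evc, a log2 fold change of -1.32 ± 0.33 (adjusted p 0.0472 in edgeR). In TMM-scaled CPM both copies separated the groups, and the weaker copy separated them by less. In CPM from library totals the groups overlapped for rps1401. The share of rps1401 in the S14 counts was 28.7%, 36.5% and 34.5% in aal1-pOE, against 17.7%, 15.5% and 13.6% in evc. The rps1401 call is close to the threshold and was lost without aal1-pOE replicate 1 (0.112), aal1-pOE replicate 3 (0.0595) and, of the evc libraries, replicate 2 (0.218) or replicate 3 (0.194), and also with a 10 CPM filter (0.0619), limma-voom (0.0682) and library totals, where its log2 fold change was -0.51 (0.361).

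S22, a body protein, was the one whose major copy differed between the groups. The copy rps2201 read 206, 160 and 148 CPM in aal1-pOE, against 662, 1304 and 1297 CPM in evc, and fell by 2.66 on the log2 scale (SE 0.36, adjusted p 0.0065 in edgeR). The copy rps2202 read 381, 103 and 396 CPM in aal1-pOE, against 766, 1022 and 979 CPM in evc, with a log2 fold change of -1.65 ± 0.48 that did not pass (adjusted p 0.0682). Replicate 2 of aal1-pOE was the low one here. Without it the rps2202 value was -1.23 and passed (0.0073), as it did with library totals (0.0499), the edgeR likelihood ratio test (0.0093), DESeq2 (0.0053) and the replicate block given below. The copy rps2202 stayed uncalled in 10 of the 16 alternatives. The share of rps2201 was 35.2%, 60.9% and 27.2% in aal1-pOE, against 46.4%, 56.1% and 57% in evc, so the groups overlapped because of that library.

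S15, which reaches the decoding site from the head, and S23, the decoding-accuracy protein that the prolyl hydroxylase Ofd1 modifies, had the less negative value in the copy with fewer evc counts too. The copy rps1502 read 293, 202 and 232 CPM in aal1-pOE, against 1020, 1862 and 2009 CPM in evc, a log2 fold change of -2.75 ± 0.38. The copy rps1501 read 255, 182 and 224 CPM in aal1-pOE, against 529, 910 and 949 CPM in evc, a log2 fold change of -1.85 ± 0.32. In aal1-pOE both S15 copies were thus at nearly equal levels, with rps1501 at 47.7% ± 1.32 of the counts, against 33.0% ± 1.03 in evc (SD, n = 3 each). The copy rps23 had a log2 fold change of -2.31 ± 0.32 and rps2302 one of -1.47 ± 0.33, with adjusted p of 0.0065 and 0.0307 in edgeR. The share of rps23 was 67.8% ± 7.45 in the aal1-pOE libraries, against 79.3% ± 1.94 in the evc libraries (SD, n = 3 each). Calls of rps1502 and rps23 stood in all 17 fits. That of rps1501 was lost without evc replicate 2 (0.0744) or evc replicate 3 (0.0709), and that of rps2302 without aal1-pOE replicate 1 (0.0919), aal1-pOE replicate 3 (0.0516) and, of the evc libraries, replicate 2 (0.159) or replicate 3 (0.153), and with library totals (-0.67, 0.226).

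A copy share is a ratio within a library and does not depend on scaling between libraries. In 26 such comparisons (1 for each protein with 2 copies, 3 for S4), the shares did not overlap between the groups in 11 (42.3%), in 10 proteins. The same measure did not overlap in 47.6% of 42 comparisons among 60S genes. The exact two-sided permutation test over 3 against 3 libraries gave each of the 11 its smallest possible p of 0.1, or 0.236 after Benjamini-Hochberg adjustment over the 26, so none passed. Among these 11, the means lay furthest apart in S14 and S15, followed by S10, S23 and S4. The share of rps1001, one of the S10 copies, was 68.3%, 69.1% and 66.3% in aal1-pOE, against 57.3%, 55.9% and 53.2% in evc. This was a case in which the copy with more counts gained share. In S4 the share of rps401 was 46.9% ± 2.93 in the aal1-pOE libraries, against 58.1% ± 0.961 in the evc libraries, that of rps402 was 33.8% ± 3.67 in the aal1-pOE libraries, against 26% ± 1.2 in the evc libraries, and that of rps403 overlapped (SD, n = 3 each). In S8 rps801 held 70.3% ± 8.67 in the aal1-pOE libraries, against 80.1% ± 0.396 in the evc libraries (SD, n = 3 each). In 16 of the 24 proteins the copy with more evc counts had the more negative log2 fold change, and in 8 the less negative one. The evc level enters both the choice of copy and the fold change, and this split was not tested. In 23 the same copy led in both groups. Of the 6 libraries, aal1-pOE replicate 2 had the lowest share of the major copy in 15 of the 24 proteins. Without it 17 of the 26 comparisons did not overlap, and without it and evc replicate 1 this was 24. Both counts had fewer libraries to overlap, and the share among 60S genes was not computed for these sets.

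**Figure D3:**
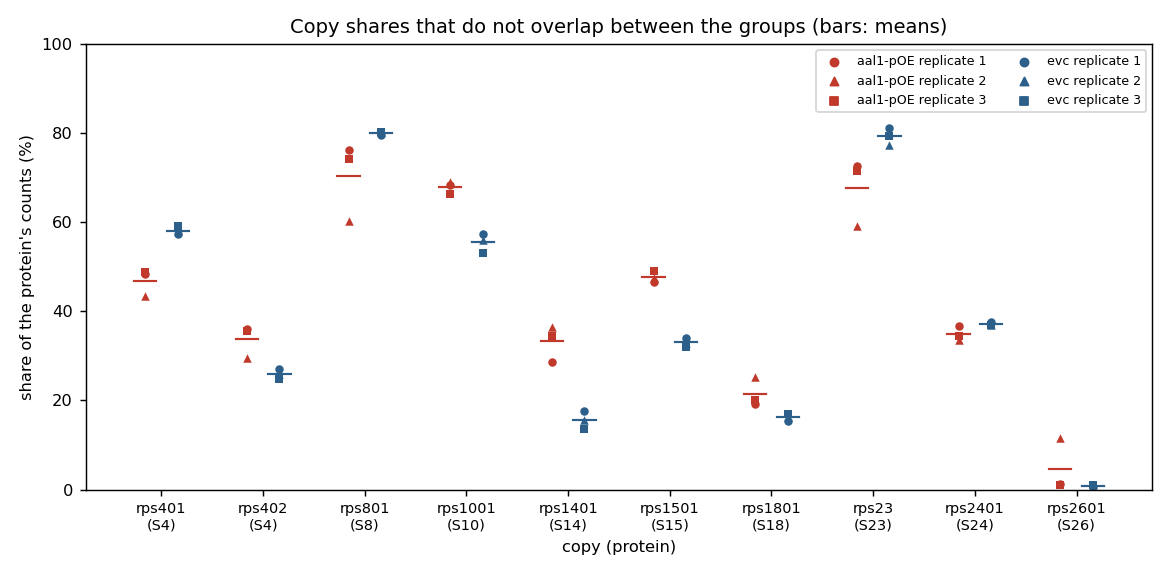
Share of each protein's counts (%) that came from the named copy in each library, for 10 of the 11 comparisons in which the 3 aal1-pOE values (red, left) and the 3 evc values (blue, right) do not overlap. Horizontal bars are means, and aal1-pOE replicate 2 is a triangle that departs from the other red points for rps801, rps23 and rps2601.

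Other copies named for their roles followed the group. S6 is the phosphorylation target of the S6 kinases downstream of TORC1. Its copies rps601 and rps602 had log2 fold changes of -2.12 ± 0.35 and -2.29 ± 0.37, and their shares overlapped, with rps601 at 59.0% ± 3.94 in the aal1-pOE libraries, against 56.3% ± 1.03 in the evc libraries (SD, n = 3 each). The genes rps502 and rps27 were linked to aal1 in the study by pull-downs of aal1 followed by RNA sequencing. By the paper's account, no RNA was significantly enriched there in wild-type over aal1 deletion cells, and top-ranked RNAs were taken. For rps502, which encodes S5 at the mRNA exit, the libraries read 315, 210 and 314 CPM in aal1-pOE, against 803, 1355 and 1460 CPM in evc, a log2 fold change of -2.11 ± 0.35. For rps27 they read 356, 141 and 335 CPM in aal1-pOE, against 844, 1090 and 1228 CPM in evc. Neither gene lay outside the range of the other members. Without evc replicate 2 the adjusted p was 0.0657 for rps601, 0.0574 for rps602, 0.0657 for rps502 and 0.111 for rps27 in edgeR. Without evc replicate 3 it was 0.0627, 0.0531, 0.0627 and 0.118, and without aal1-pOE replicate 1 it was 0.0576 for rps27.

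The members with the smallest p were minor as well as major copies. In CPM, rps2802, a copy of S28 at the mRNA exit, read 58.5, 52.3 and 46.5 in aal1-pOE, against 201, 324 and 387 in evc. The groups did not overlap, and its log2 fold change was -2.53 ± 0.29. The log2 fold changes of rps1701 and rps2501 were -2.78 ± 0.35 and -2.80 ± 0.37, that of ubi5, the weaker S31 fusion gene, was -2.38 ± 0.33, and that of rps1201 was -2.33 ± 0.32. These 5, with rps21, rps29, rps2201, rps1502 and rps23, had the 10 smallest p of the members, at an adjusted p of 0.0065 each in edgeR, and their calls stood in all 17 fits.

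Levels between genes were compared in TMM-scaled CPM per kilobase of transcript. In evc the members ranged from 21.4 for rps2601 to 5818 for rps2502 with a median of 1250, and in aal1-pOE from 21.5 for rps2601 to 893 for rps13 with a median of 278. The 5 highest in evc were rps2502, rps13, rps20, rps1802 and rps102. For rps2502, one of the S25 copies, the libraries read 300, 107 and 338 CPM in aal1-pOE, against 1160, 2092 and 2437 CPM in evc. It had the most negative log2 fold change of all members (-2.93 ± 0.51, adjusted p 0.0106 in edgeR). For rps13 they read 659, 260 and 665 CPM in aal1-pOE, against 2065, 2643 and 2869 CPM in evc. The log2 fold changes of rps1802 and rps102, which encode S18 of the head and S1 of the platform, were -2.50 ± 0.39 and -2.46 ± 0.41. In rps2502 and rps13, aal1-pOE replicate 2 was well below its 2 companions. Across the 57 genes, the log2 evc level per kilobase and the log2 fold change had a Pearson r of -0.67 and a Spearman rho of -0.42, and across the 56 without rps2601 an r of -0.49 and a rho of -0.39. These describe genes that share libraries and in which the evc level enters both measures. Without evc replicate 2 or evc replicate 3 the adjusted p in edgeR was 0.0606 and 0.0565 for rps2502, 0.101 and 0.101 for rps13, 0.0829 and 0.0831 for rps20, 0.0544 and 0.0513 for rps1802, and 0.0675 and 0.0642 for rps102.

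Most genes fell in every division of the members by position, promoter, introns or chromosome. For comparison, 4.64% of all genes tested fell, and the median log2 fold change of all members was -2.23. Of 25 genes for head proteins 24 fell (median log2 fold change -2.38), and of 32 for body and platform proteins 30 fell (median -2.17). With HomolD in the promoter 34 of 35 fell (median -2.29), and with no such match 20 of 22 (median -2.12). Of the 5 genes without an exact match to the 7-base form, 5 fell (median -2.11), rps1401 and rps2302 among them and rps1202 at -2.84 ± 0.43. Inexact matches were not searched for, and rps2302 and rps502 of these genes hold cggtcaca, a near match to HomolD. With the HomolE core 22 of 23 fell (median -2.29), and without it 32 of 34 (median -2.21). Genes with introns fell in 29 of 31 cases (median -2.26), and intronless genes in 25 of 26 (median -2.18). On chromosome I 28 of 30 fell, on chromosome II 19 of 20 and on chromosome III 7 of 7. These medians are descriptions and the differences between them were not tested.

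**Figure D4:**
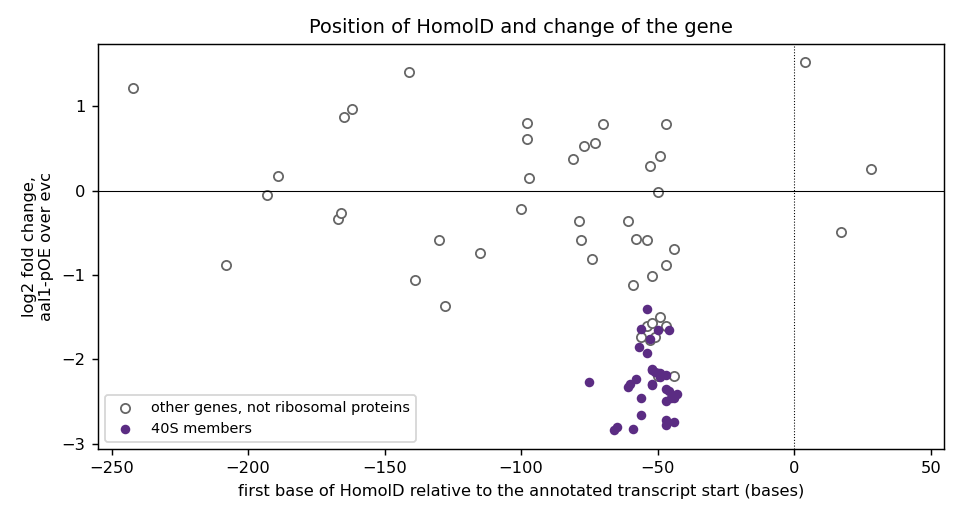
Log2 fold change (aal1-pOE over evc) against the position of HomolD, as bases of its first letter from the annotated transcript start, for the 35 members that carry it (filled) and 47 other genes that are not ribosomal proteins (open). Only the last match of each promoter is drawn. The members sit between 43 and 75 bases before the start and all lie below 0.

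Some members are neighbours with no protein-coding gene between them. On chromosome II, rps29 (516428 to 516879) is followed on the same strand by rps27 (517321 to 517984) after 441 bases, and rps1402 (1792363 to 1792936) by rps1601 (1793937 to 1794755) after 1000 bases. On chromosome III, rps2 (2095135 to 2096036, minus strand) and rps20 (2096527 to 2097017, plus strand) diverge from a shared stretch of 490 bases. The neighbours differed in size of change, with log2 fold changes of -2.59 ± 0.32 for rps29 beside -1.93 ± 0.40 for rps27, -2.83 ± 0.40 for rps1402 beside -2.26 ± 0.39 for rps1601, and -1.66 ± 0.34 for rps2 beside -2.42 ± 0.45 for rps20. These differences were not tested. The promoters of rps2 and rps20 lie back to back. Their printed windows show HomolD and HomolE in that of rps2 and HomolE with a cagtcact in that of rps20. Annotated genes on the same strand overlap 4 members, by 7 to 75 bases: rps13 with cdc16, rps3 with snR48 and fkh2, and rps1801 and rps2 with non-coding RNAs.

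Summed over its genes, the 40S took 1.39%, 1.63% and 1.23% of all counts in aal1-pOE replicates 1, 2 and 3, against 2.97%, 4.92% and 5.05% in evc replicates 1, 2 and 3. The groups did not overlap. The share averaged 1.41% ± 0.20 in the aal1-pOE libraries, against 4.31% ± 1.17 in the evc libraries (SD, n = 3 each), a log2 difference of -1.58 or 2.99-fold (exact two-sided permutation test, p = 0.1, the smallest that 3 against 3 allows). Of nuclear protein-coding counts it was 1.54% in aal1-pOE and 4.69% in evc. Of the 85 genes of the 60S subunit 77 fell and 0 rose, where 4.64% of all genes tested fell. Their log2 fold changes had a median of -2.25. The ratio of 40S to 60S counts was 0.743, 0.704 and 0.754 in aal1-pOE, against 0.742, 0.748 and 0.761 in evc. Only aal1-pOE replicate 2 lay below the evc range. The log2 difference was -0.03 (exact two-sided permutation test, p = 0.5), so no change in the balance of the subunits was detectable with these libraries.

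**Figure D5:**
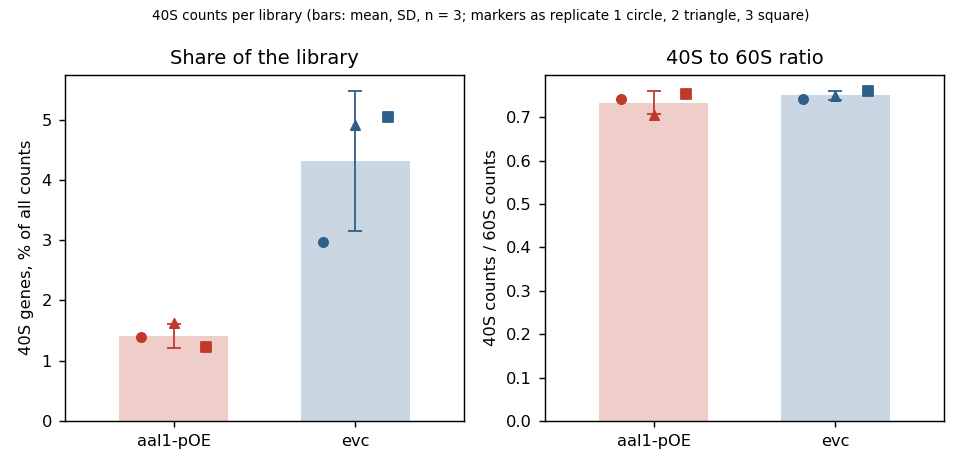
Left, 40S genes as % of all counts. Right, ratio of 40S to 60S counts. Bars are means with SD (n = 3) for aal1-pOE (red, left) and evc (blue, right), and markers are libraries. The share is 1.41% in aal1-pOE and 4.31% in evc, and the ratios of both groups lie between 0.704 and 0.761.

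With all 6 libraries, 1 gene on the lists of 40S assembly factors and of signalling to ribosomal proteins passed the test. Of all 5823 genes tested, 270 fell (4.64%) and 79 rose. A count of 1 call on lists this short does not set them apart from all genes. Of 30 assembly factors, 26 matched and were tested, and 0 were called by edgeR. At an unadjusted p under 0.05, 3 were lower (rio1, bms1 and rrp5). The edgeR likelihood ratio test called 1, and DESeq2 called 2. The shares of all genes for the unadjusted p and for these other tests were not computed. The median log2 fold change of the 26 was -0.29 with TMM scaling and 0.41 with library totals, so its sign depends on the scaling. The kinase gene rio1, which acts late in 40S maturation, had a value of -0.78 ± 0.22 (adjusted p 0.0665 in edgeR), and bms1, a GTPase of early assembly, one of -0.62 ± 0.27 (adjusted p 0.179). Of 17 genes for signalling to ribosomal proteins and their regulators 16 were tested, with a median of -0.06 (0.55 with library totals), and 1 fell. This was cpc2, which encodes the fission yeast RACK1 on the 40S head. Its level averaged 696 CPM in the aal1-pOE libraries, against 3181 CPM in the evc libraries, a log2 fold change of -2.19 ± 0.40 (adjusted p 0.0130 in edgeR), inside the range of the rps genes. It was not called in any fit that lacked replicate 1 of aal1-pOE or replicate 2 or 3 of evc, when 0 genes of either list passed. With aal1-pOE replicate 2 and evc replicate 1 both omitted, 8 assembly factors fell and 2 rose, and 4 signalling and regulator genes fell and 4 rose, where 20.2% of all genes fell and 19.4% rose. The HomolD-binding factor gene rrn7 had a value of 0.42 ± 0.24 (adjusted p 0.279), tor2, the TORC1 kinase gene, one of -0.01 ± 0.26, psk1, a gene for an S6 kinase, one of -0.81 ± 0.24 (adjusted p 0.0747), and rmt3 and ofd1, which modify S2 and S23, -0.27 ± 0.20 and -0.30 ± 0.21. None of these passed with all 6 libraries.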

How the data were processed

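Strand-specific RNA-seq libraries of 3 aal1-pOE and 3 evc cultures were grouped by their labels, where replicates are biological. The authors depleted rRNA, used STAR 2.6.1a for alignment to the PomBase genome and HTSeq 0.12.3 (reverse strand) for counting. The build and any collapsing of the molecular indices are not given in the sources used here. The deposited table holds raw counts, one whole number for each gene and library. HTSeq by default drops reads with several alignments, so counts of near-identical copies are uncertain.

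Of 6952 identifiers, 6816 matched RefSeq ASM294v3, which gave symbols, coordinates and sequences, and 0 rows lacked a gene. Genes above 1 CPM in at least 3 libraries (5823, all 57 members included) were tested with edgeR 4.0.16 in R 4.3.3 (TMM, quasi-likelihood, strain as the only factor, evc as reference), with p-values adjusted over all genes by the Benjamini-Hochberg method. SE was taken as the size of the log2 fold change divided by the square root of F. A second fit summed copies by protein, 60S copies too (5760 rows). Shares and ratios were compared by exact two-sided permutation tests (scipy 1.17.1). The 60S set was first defined by name (86 genes). RefSeq products removed 3 RNase P or MRP subunits, and 2 genes named rpl35A were added, after the data were seen. The script was tested on simulated data. Totals of 5839863 to 13164975 counts left the lowest member count at 17.

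Genes given values were all members not called, the 10 with the smallest p, copies of the 5 proteins whose copies differed most, the 5 highest in evc per kilobase, single-copy genes, rps27, rps502 and the rps6 copies, and others were named after their values were seen. The members and lists were chosen with earlier results of these data known. Alternatives were DESeq2 size factors, library totals, TMM without ribosomal protein genes, no filter, a 10 CPM minimum, DESeq2 1.42.0, limma-voom (limma 3.58.1), edgeR's likelihood ratio test, a replicate block and leaving out libraries. Sequences of amino acids are not printed, and 1 member is counted but not reported by name here.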

Additional observations from a re-analysis of the deposited data

How the results depend on the processing

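Among 16 alternatives, the numbers of 40S genes and proteins called moved by over 1.5 times only when single libraries were left out: 21 to 56 genes and 0 to 32 proteins, with the lowest counts without evc replicate 2 (21 genes, 0 proteins), evc replicate 3 (22, 0) and, for proteins, aal1-pOE replicate 1 (0). The cause was not tested. The median log2 fold change of the members was -1.53 with library totals. Calls among the assembly and signalling genes, 1 in the fit reported, were 2 with library totals, 4 with the likelihood ratio test, 4 with DESeq2, 2 with the replicate block, 0 to 2 when 1 library was left out, and 18 (12 lower, 6 higher) with aal1-pOE replicate 2 and evc replicate 1 both omitted. Without these 2 libraries the log2 difference of the 40S share was -1.93 and 24 copy comparisons did not overlap. The copy comparisons without overlap numbered 11 to 17 when 1 library was left out, and fewer libraries make an overlap less likely. For rps2601 the log2 fold change was -0.016 with DESeq2 size factors, -0.036 with DESeq2, -0.45 with the replicate block, -1.63 to 0.48 when 1 library was left out, -2.03 without both libraries (adjusted p 0.0016), and 1.09 with library totals (0.416). The other named genes kept their sign. Of 30 named genes, 16 lost their call without evc replicate 2, 16 without evc replicate 3 and 7 without aal1-pOE replicate 1. Choosing 60S genes by name only, an alternative added after the data were seen, gave a ratio difference of -0.04. Same-numbered libraries did not deviate together (correlations 0.033, 0.0097 and 0.0065). This cannot tell whether same-numbered cultures were grown or processed together, which the labels do not say. With the replicate block 56 genes (6.58% of all genes) and 32 proteins (5.4% of all rows) were called, rps2202 (-1.85, adjusted p 0.0209) and rps1902 (-1.56, 0.0020) among them, and the 40S share difference was -1.58. Counts of the members ran from 17 to 19547. With 3 libraries a side, exact tests cannot pass, and p-values measure the spread between these cultures.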

Other observations

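HomolD is not limited to the 40S and 60S genes counted above. It lay in the promoter window of 47 other tested genes, with cpc2, for RACK1 on the 40S head, among them. Of these 47, 9 fell and 0 rose (edgeR, adjusted p of at most 0.05), where 4.64% of all genes fell. Their median log2 fold change was -0.36. Of the 23 whose last HomolD match lay 43 to 75 bases before the transcript start, as in the 40S members, 8 fell. These 23 had a median of -0.88 and a range of -2.20 to 0.79. Of the 24 with HomolD elsewhere in the window, 1 fell, the leucyl-tRNA synthetase gene lrs1, with a median of 0.05 and a range of -1.36 to 1.52, so the ranges overlapped. The 8 were tef101, for elongation factor eEF1A, cpc2, for RACK1, btf3, for a subunit of the nascent polypeptide-associated complex, tma19, tif1, for initiation factor eIF4A, ilv5, for an enzyme of branched-chain amino acid synthesis, rlp7, for a factor of 60S assembly, and sam1, for S-adenosylmethionine synthetase. The change of tef101 was -2.20 ± 0.47, averaging 1126 CPM in the aal1-pOE libraries, against 5166 CPM in the evc libraries. That of btf3 was -1.77 ± 0.35, averaging 60.4 CPM in the aal1-pOE libraries, against 207 CPM in the evc libraries. These groups were formed after the fold changes were known, so no test was made between them, and a match of letters does not show that the element is used.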
